A study of Mus musculus with 2 samples.

Results

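Genes of mitosis and chromosome segregation were followed in mouse cardiac myofibroblasts after knockdown of *Vgll3*, a transcription cofactor that binds TEAD factors. The genes are a list of 46 symbols with known roles in cell division, chosen by name but with earlier results of these data known. All 46 were found among the 24532 genes of the count table and among the 14158 genes with a TPM value. The cells came from infarcted hearts of C57BL/6 mice (for isolated myofibroblasts the methods give C57BL/6J), 3 days after myocardial infarction (MI), were let attach to plastic and were depleted of CD45-positive cells. They were kept in medium with serum and were given 12.5 nM of a control siRNA (siCtrl) or of 1 siRNA against *Vgll3* (si*Vgll3*), and RNA was taken 72 h later. Each condition is 1 culture and 1 library, which leaves the differences below without a replicate check and without p-values. The sources used here do not say how many hearts each culture came from.

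A cell divides only after cyclin-dependent kinase 1 (CDK1) with a B-type cyclin has pushed it into mitosis. Chromosomes are then compacted by condensin, attached through kinetochores to the spindle and held back by the spindle assembly checkpoint, until the anaphase-promoting complex marks cyclin B and securin for destruction and cytokinesis parts the daughter cells. The mRNAs of most of these proteins are made late in the cell cycle and are low in resting cells, so they are widely read as markers of dividing cells. Cardiac fibroblasts divide little in the healthy heart, divide in the days after an infarct and go on dividing in culture with serum.

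The level of a gene is given in TPM, the share of a gene among all transcripts, which the authors scaled for gene length and library size, so levels can be compared between genes. The difference is given as M, the log2 ratio of the TPM in si*Vgll3* to that in siCtrl, and the abundance as A, the log2 of the mean TPM of both libraries. Square brackets hold a 95% interval around M that comes from the read counts alone (Clopper-Pearson). It covers counting error only and compares 2 libraries, not 2 conditions. In each pair of TPM values the siCtrl level comes first. The siCtrl library held 140815237 reads on genes and the si*Vgll3* library 125789276. The mitotic genes had 1904 to 37838 reads in a library, so that no interval reached further than 0.088 from its M. The targeted gene, *Vgll3*, had an M of −1.27 [−1.29, −1.24], from 202 TPM under siCtrl to 84.0 TPM under its siRNA. In libraries made from whole cultures, fewer dividing cells and less of an mRNA per dividing cell cannot be told apart.

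Promoters of late cell-cycle genes are known for 2 short elements, the CCAAT box, bound by NF-Y, and the cell cycle genes homology region (CHR), bound by the DREAM and MMB complexes. Both were looked for in RefSeq promoter windows of GRCm38.p6, the assembly also called mm10, from 250 bases before to 50 bases after each annotated start. A window was found for 38 of the 46 genes, and *Aurkb*, *Ccna2*, *Cdc25c*, *Foxm1*, *Incenp*, *Kif20a*, *Smc4* and *Tpx2* had none. The CCAAT box was searched as CCAAT on either strand and the CHR as TTTGAA on either strand or as TTCGAA, which reads alike on both, and matches that overlap were each counted. The 200 bases around the start are shown for the 3 genes with the highest M, the 3 with the lowest M and the most abundant gene, among genes with 1 window, so that promoters of genes at both ends of the list can be compared. Each runs 5′ to 3′ on the strand of the gene, from 150 bases before the start to 50 after it, with matches to either element in capitals.
Aurka, chr2:172370521-172370720, minus strand: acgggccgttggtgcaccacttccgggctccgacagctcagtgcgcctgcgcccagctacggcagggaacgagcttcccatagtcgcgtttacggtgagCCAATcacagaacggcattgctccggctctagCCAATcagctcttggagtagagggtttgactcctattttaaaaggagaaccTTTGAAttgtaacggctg
Anln, chr9:22389157-22389356, minus strand: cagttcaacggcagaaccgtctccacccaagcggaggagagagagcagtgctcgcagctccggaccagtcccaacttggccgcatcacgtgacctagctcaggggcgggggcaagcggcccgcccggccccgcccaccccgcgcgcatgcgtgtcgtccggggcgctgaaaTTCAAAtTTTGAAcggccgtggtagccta
Cdk1, chr10:69352863-69353062, minus strand: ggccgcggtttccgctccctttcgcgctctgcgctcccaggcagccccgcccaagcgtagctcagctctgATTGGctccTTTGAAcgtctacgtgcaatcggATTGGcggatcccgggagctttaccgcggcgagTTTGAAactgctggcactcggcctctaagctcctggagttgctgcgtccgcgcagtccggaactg
Ube2c, chr2:164769779-164769978, plus strand: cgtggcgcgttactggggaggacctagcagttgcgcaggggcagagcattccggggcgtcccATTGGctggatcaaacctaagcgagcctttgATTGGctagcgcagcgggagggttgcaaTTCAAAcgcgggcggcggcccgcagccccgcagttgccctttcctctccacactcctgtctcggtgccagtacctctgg
Cenpf, chr1:189688037-189688236, minus strand: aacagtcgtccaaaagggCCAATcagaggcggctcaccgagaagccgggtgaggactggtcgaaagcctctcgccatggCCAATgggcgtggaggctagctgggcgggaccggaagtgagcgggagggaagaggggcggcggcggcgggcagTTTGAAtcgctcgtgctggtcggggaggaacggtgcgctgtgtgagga
Pttg1, chr11:43425932-43426131, minus strand: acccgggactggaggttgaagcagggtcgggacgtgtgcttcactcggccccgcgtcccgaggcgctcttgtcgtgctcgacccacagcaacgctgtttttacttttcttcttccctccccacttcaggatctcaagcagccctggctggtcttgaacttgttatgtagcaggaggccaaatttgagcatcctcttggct
Mki67, chr7:135716330-135716529, minus strand: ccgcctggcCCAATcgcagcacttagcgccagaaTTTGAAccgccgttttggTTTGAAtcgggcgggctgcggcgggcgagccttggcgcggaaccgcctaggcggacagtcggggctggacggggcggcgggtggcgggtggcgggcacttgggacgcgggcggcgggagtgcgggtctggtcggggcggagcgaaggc

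A CHR match was present in 30 of the 38 mitotic genes (78.9%), against 21.7% of the 27025 genes with a window and 16.1% of the 9363 of these with A > 0. It began within 50 bases of the start in 27 mitotic genes (71.1%), against 6.12% of all genes with a window. A CCAAT match was present in 30 mitotic genes (78.9%) against 41.1% of all, and 20 of them (52.6%) had at least 2 such matches in a window against 13.3% of all. Both elements occurred together in 27 mitotic genes and in 8.61% of all genes. These shares describe the letters in the window and show no binding. In the 35 genes with 1 window, the first base of a CHR match had a median position of −6.5 relative to the start, and that of a CCAAT match a median position of −69.5.

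**Figure D1:**
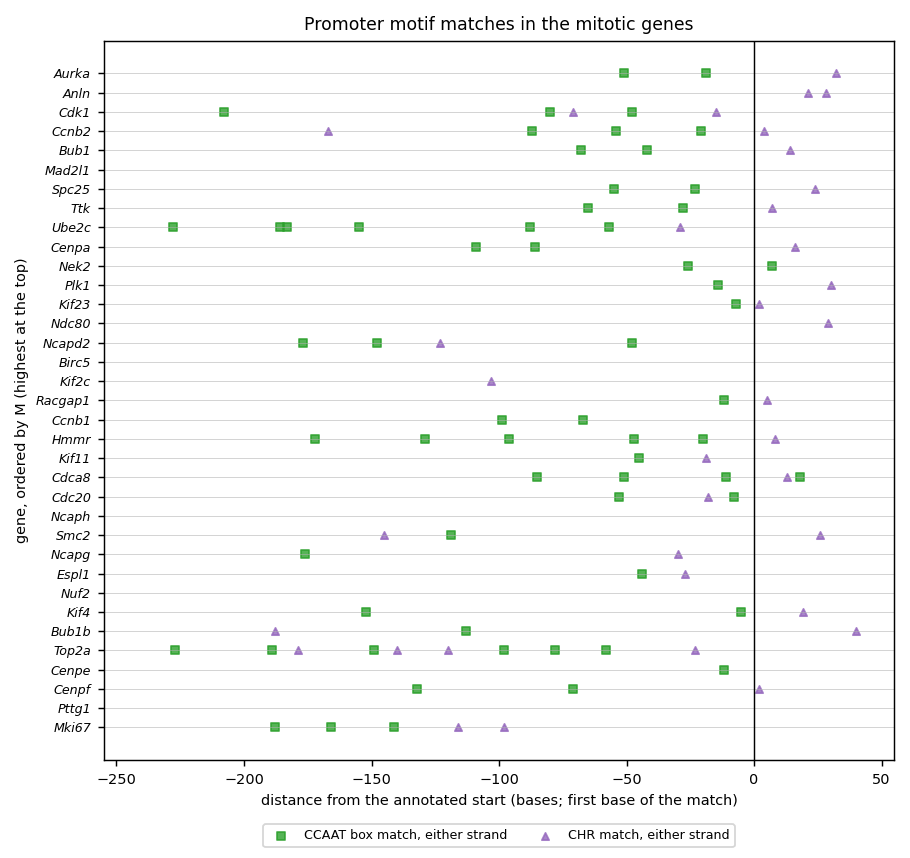
Positions of CCAAT box matches (green squares) and CHR matches (purple triangles) against distance from the annotated start in bases, for the 35 mitotic genes with 1 promoter window, ordered by M. Of the 36 CHR matches, 25 begin within 50 bases of the start. Such matches are present in *Aurka*, *Anln* and *Cdk1* at the top of the order. Near the bottom, *Cenpf* has such a match and *Mki67*, *Pttg1* and *Cenpe* do not.

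M overlapped widely between genes with and without these elements. The 30 genes with a CHR match had a median M of 0.18 and a range of −0.37 to 0.42, and the 8 without one had a median of 0.10 and a range of −0.19 to 0.31. *Mki67*, at the lowest M of the list, carries 2 CHR matches and 3 CCAAT matches in its window, the same numbers as *Cdk1*, at the third highest M. Their places differ, since the CHR matches begin at −116 and −98 in *Mki67* and at −71 and −15 in *Cdk1*. The window of *Pttg1*, at the second lowest M, holds neither, and that of *Mad2l1*, at an M of 0.31, holds neither as well. The *Pttg1* window, however, lies inside the gene as GENCODE annotates it (chr11:43420250-43426251, minus strand). Bases before that outer start were not searched, so a lack of both elements in its promoter is not shown. Some other windows also lie inside their genes, among them those of *Cdca8* and *Kif2c*.

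None of the 46 mitotic genes was past M of 0.5 in either direction. The study used M < −0.5 with A > 0 for lower genes, and the same size was taken here for higher genes. Over the 11754 genes with A > 0, 11.4% had M < −0.5 and 5.73% had M > 0.5. The mitotic genes lie between A of 2.73 and 7.95, and all 46 were within 0.5, beside 87.6% of the 8263 genes in that range of A. M was above 0 for 34 genes and below 0 for 12, and its median was 0.12, beside −0.05 for all genes with A > 0. The whole counting interval lay above 0 for 33 mitotic genes, where 32.4% of all genes had such an interval, and below 0 for 9, where 45.8% of all genes did. The intervals of *Foxm1*, *Nuf2*, *Kif4* and *Espl1* held 0.

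Scaling sets where 0 lies, and at differences this small it matters. When the counts were scaled by library totals (CPM), by TMM or by DESeq2's size factors, or when M was centred on the median of all genes, 34 genes stayed above 0 each time and 7 stayed below 0, namely *Mki67*, *Pttg1*, *Cenpf*, *Incenp*, *Cdc25c*, *Smc4* and *Cenpe*. Each of these settings raised M of every mitotic gene. The 34 therefore could not have fallen below 0, and only the genes below 0 were put to a check. The counting intervals of *Cdc25c* and *Cenpe* held 0 when M was centred. The sign of *Bub1b*, *Foxm1*, *Kif4*, *Nuf2* and *Top2a* depended on the scaling. The distance between the median of the mitotic genes and that of all genes was 0.16 from TPM and 0.16 from the counts. CPM, TMM and DESeq2's factors differ by the same shift for every gene, and so does centring from TPM. Such a shift cannot change the distance, which is therefore no check of these scalings. In the annotation 26 of the mitotic genes overlap another gene, and among the other 20 the median M was 0.15, with 16 above 0.

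**Figure D2:**
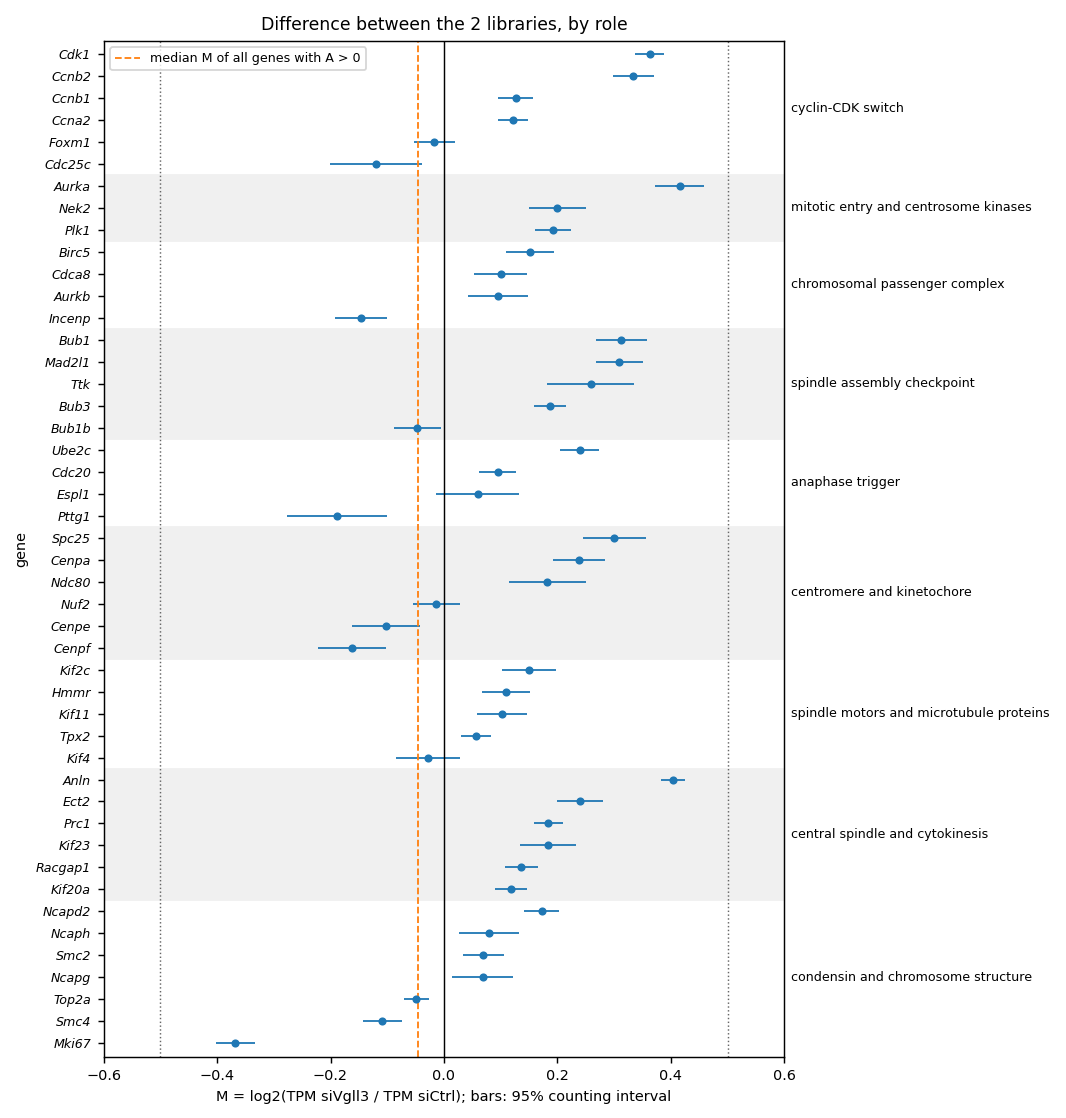
M of each mitotic gene with its 95% counting interval (bars), grouped by role, with dotted lines at −0.5 and 0.5 and a dashed line at the median of all genes with A > 0. All 46 points lie between −0.37 and 0.42, and all 6 genes of the central spindle and cytokinesis group have intervals above 0.

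The mitotic genes were well expressed, with medians of 51.5 TPM under siCtrl and 52.0 TPM under si*Vgll3*. Over all 14158 genes with a TPM value, with no filter on A, the medians were 14.0 and 12.9 TPM. Summed, they made up 3033 TPM (0.304% of the total) in siCtrl and 3383 TPM (0.339%) in si*Vgll3*, a log2 ratio of 0.16. *Ube2c* was the most abundant in both libraries and *Cenpf* the least. Above 100 TPM were 12 genes in siCtrl and 14 in si*Vgll3*, and 3 genes were under 10 TPM in both, *Cenpf*, *Espl1* and *Cenpe*. The order of levels was nearly the same in both libraries. No gene moved by more than 4 places, and *Cdk1*, *Ccnb2*, *Anln* and *Ect2* moved up that far.

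**Figure D3:**
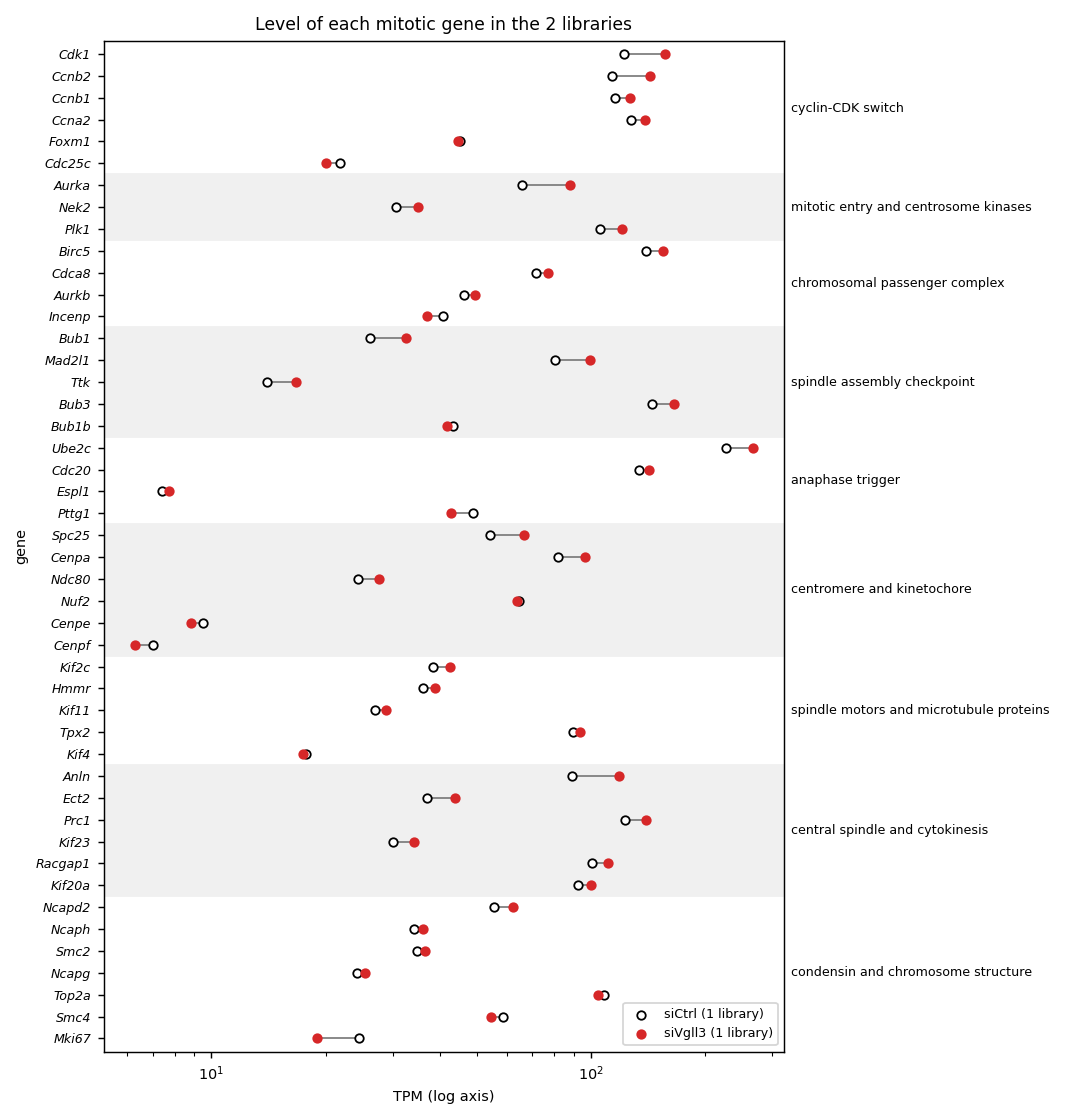
TPM of each mitotic gene in the siCtrl library (open circles) and the si*Vgll3* library (red circles) on a log axis, grouped by role, with a line joining both values. Levels span 7.02 TPM (*Cenpf*) to 227 TPM (*Ube2c*) in siCtrl, far more than any gene differs between the libraries.

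The CDK1 switch was led by the kinase itself. *Cdk1*, whose kinase drives entry into mitosis, had 122 TPM under siCtrl and 157 TPM under si*Vgll3*, with an M of 0.36 [0.34, 0.39]. *Ccnb2*, a B-type cyclin that partners CDK1, went from 113 to 143 TPM, an M of 0.33 [0.30, 0.37]. The intervals of both lay well above those of the other cyclins. *Ccnb1*, the main mitotic cyclin, was at 116 and 127 TPM, an M of 0.13 [0.10, 0.16], and *Ccna2*, the cyclin of S phase and early mitosis, was close to it at 127 and 138 TPM, an M of 0.12 [0.10, 0.15]. Per length, the 3 cyclin mRNAs stood at similar levels in siCtrl, and *Ccnb2* was the most abundant of them in si*Vgll3*. *Cdc25c*, a phosphatase that removes the inhibitory phosphates of CDK1, was lower, at 21.8 and 20.1 TPM, an M of −0.12 [−0.20, −0.04]. *Foxm1*, a transcription factor of G2 and M phase genes, was at 45.2 and 44.7 TPM, an M of −0.02 whose interval [−0.05, 0.02] held 0.

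Kinases of mitotic entry and of the centrosome were all higher in si*Vgll3*. *Aurka*, the kinase that matures centrosomes and activates PLK1, had the highest M of the list, with 65.8 and 87.8 TPM and an M of 0.42 [0.37, 0.46]. It also stood at the 92.7th percentile of M over all genes with A > 0. *Plk1*, which acts from centrosomes to cytokinesis, was at 106 and 121 TPM, an M of 0.19 [0.16, 0.22]. *Nek2*, a kinase that helps centrosomes to part, was at 30.6 and 35.1 TPM, an M of 0.20 [0.15, 0.25]. *Tpx2*, which activates Aurora A on the spindle, differed less than its partner, with 89.9 and 93.5 TPM and an M of 0.06 [0.03, 0.08].

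The chromosomal passenger complex, which corrects faulty attachments and works in cytokinesis, did not move as 1 unit. Its kinase *Aurkb* was at 46.4 and 49.6 TPM (M of 0.10 [0.04, 0.15]), and *Cdca8*, which encodes borealin, at 71.8 and 76.9 TPM (M of 0.10 [0.05, 0.15]). *Birc5*, which encodes survivin, was the most abundant of the complex, at 139 and 155 TPM, an M of 0.15 [0.11, 0.19]. *Incenp*, the scaffold that holds the kinase, went the other way, from 40.8 to 36.9 TPM, an M of −0.15 [−0.19, −0.10]. *Birc5* is also where TPM and counts parted most. For 43 of the mitotic genes M from TPM was within 0.01 of M from CPM less a constant of 0.05, the shift seen in the median gene, whereas M from CPM was 0.27 for *Birc5*, 0.38 for *Spc25* and −0.12 for *Pttg1*. All 3 have more than 1 transcript in the count table, but so do genes that were within 0.01, among them *Cenpa* with 6 and *Tpx2* with 5.

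Checkpoint genes, whose products hold anaphase until each kinetochore is attached, had the highest median M of the 9 groups, 0.26. *Bub1*, a kinase at the kinetochore, went from 26.2 to 32.6 TPM, an M of 0.31 [0.27, 0.36]. *Mad2l1*, which encodes the MAD2 protein that captures CDC20, went from 80.3 to 99.5 TPM, an M of 0.31 [0.27, 0.35]. The intervals of these 2 genes overlapped almost fully. *Ttk*, the MPS1 kinase that starts the signal, was at 14.0 and 16.7 TPM (M of 0.26 [0.18, 0.34]), and *Bub3*, which docks the BUB proteins, at 145 and 165 TPM (M of 0.19 [0.16, 0.22]). *Bub1b*, which encodes the inhibitor BUBR1, was the exception at 43.2 and 41.8 TPM, an M of −0.05 [−0.09, −0.01] that turned to 0.00 with CPM.

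Of the genes that trigger anaphase, *Ube2c*, the ubiquitin-conjugating enzyme of the anaphase-promoting complex, went from 227 to 268 TPM, an M of 0.24 [0.21, 0.27]. *Cdc20*, the activator of that complex in mitosis, was at 133 and 143 TPM, an M of 0.10 [0.06, 0.13]. Securin and separase, the inhibitor and the protease that cuts cohesin, were at very different levels. *Pttg1*, which encodes securin, was at 48.8 and 42.9 TPM, an M of −0.19 [−0.28, −0.10], with the fewest reads of the list. *Espl1*, which encodes separase, was at 7.41 and 7.72 TPM, an M of 0.06 whose interval [−0.01, 0.13] held 0.

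Centromere and kinetochore genes split by gene and not by complex. *Cenpa*, the histone H3 variant that marks the centromere, went from 81.6 to 96.2 TPM, an M of 0.24 [0.19, 0.28]. Within the NDC80 complex, which grips microtubule ends, *Spc25* went from 54.1 to 66.7 TPM (M of 0.30 [0.25, 0.36]) and *Ndc80* from 24.3 to 27.6 TPM (M of 0.18 [0.11, 0.25]). Their partner *Nuf2* was level, at 64.4 and 63.8 TPM (M of −0.01 [−0.05, 0.03]). *Spc24*, the remaining subunit not among the 46 genes and named here to complete the complex after its value was seen, was lower, at 34.9 and 29.2 TPM, an M of −0.26 [−0.34, −0.18]. *Cenpe*, a kinesin that moves chromosomes to the spindle equator, was at 9.47 and 8.83 TPM, an M of −0.10 [−0.16, −0.04]. *Cenpf*, a large protein of the outer kinetochore, was at 7.02 and 6.28 TPM, an M of −0.16 [−0.22, −0.10].

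Spindle motors and microtubule proteins spanned a narrow range, from −0.03 to 0.15. *Kif2c*, a kinesin that takes microtubules apart at kinetochores, was highest at 38.4 and 42.6 TPM, an M of 0.15 [0.10, 0.20]. *Hmmr*, which acts in spindle assembly, was at 36.1 and 38.9 TPM, and *Kif11*, the kinesin that pushes the spindle poles apart, at 26.9 and 28.9 TPM, with M of 0.11 and 0.10. *Kif4*, a chromosome-bound kinesin, was at 17.8 and 17.4 TPM, an M of −0.03 whose interval [−0.08, 0.03] held 0.

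All 6 genes of the central spindle and of cytokinesis were higher in si*Vgll3* by more than counting error, with a median M of 0.18. *Anln*, which encodes the contractile ring protein anillin, went from 89.3 to 118 TPM with 30907 and 37838 reads, an M of 0.40 [0.38, 0.43]. *Ect2*, the exchange factor that activates RhoA at the cleavage site, went from 37.0 to 43.7 TPM, an M of 0.24 [0.20, 0.28]. It works with the centralspindlin pair *Kif23* and *Racgap1*, which had M of 0.18 [0.13, 0.23] and 0.14 [0.11, 0.17]. At 101 TPM in siCtrl *Racgap1* stood well above *Kif23* at 30.2 TPM. *Prc1*, which bundles the microtubules of the central spindle, was at 123 and 139 TPM (M of 0.18 [0.16, 0.21]), and *Kif20a*, a kinesin of the same structure, at 92.3 and 100.1 TPM (M of 0.12 [0.09, 0.15]).

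Genes of condensin and of chromosome structure had the lowest median of the groups, 0.07, and their summed level was 340.1 TPM under siCtrl and 339 TPM under si*Vgll3*. The 5 subunits of condensin I were at 24.2 to 58.7 TPM in siCtrl. *Ncapd2*, a regulatory subunit, was highest in M, at 55.4 and 62.4 TPM (M of 0.17 [0.14, 0.20]). *Ncaph*, *Smc2* and *Ncapg* had M of 0.08, 0.07 and 0.07, each with an interval above 0. *Smc4*, the ATPase that pairs with SMC2, went from 58.7 to 54.4 TPM, an M of −0.11 [−0.14, −0.07]. *Top2a*, which untangles DNA, was at 108 and 105 TPM (M of −0.05 [−0.07, −0.03]), and its M was 0.00 with CPM.

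*Mki67*, the gene of the Ki-67 antigen by which dividing cells are commonly stained, had the lowest M of the 46 genes. It was at 24.5 and 19.0 TPM, with 15784 and 11321 reads, an M of −0.37 [−0.40, −0.33]. Between the upper end of its interval and the lower end of that of *Aurka* lay 0.71, so these proliferation markers stood at opposite ends of the list by far more than counting error. *Mki67* was also the only 1 of the 46 below the lower quartile of M over all genes with A > 0, −0.26, while 21 were above the upper quartile, 0.13.

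Transcript length moved with M among the mitotic genes. Over the 46 genes, M and the log2 of the length of the longest matched GENCODE vM21 transcript had a Pearson r of −0.46 and a Spearman rho of −0.41, a description across genes of the same 2 libraries, which are not independent replicates. The 4 genes of 6000 nt or more were *Cenpf* (11130 nt), *Mki67* (10061 nt), *Cenpe* (7910 nt) and *Espl1* (6658 nt), and 3 of them had M below 0. Without these 4, rho was −0.27 and r −0.22 over 42 genes. M was also related to A (rho of 0.42), and 3 of these 4 genes were the least abundant of the list. Over 11653 genes with A > 0 and a length, rho between M and length was −0.12. All-gene medians went from 0.00 under 2000 nt to −0.11 at 6000 nt and over, and those of the mitotic genes from 0.24 over 11 genes to −0.13 over 4 genes. In the 4 classes under 6000 nt the mitotic median was 0.15 to 0.24 above that of all genes of the class. The part of length in these differences was not tested, and no measure of RNA integrity was used here.

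**Figure D4:**
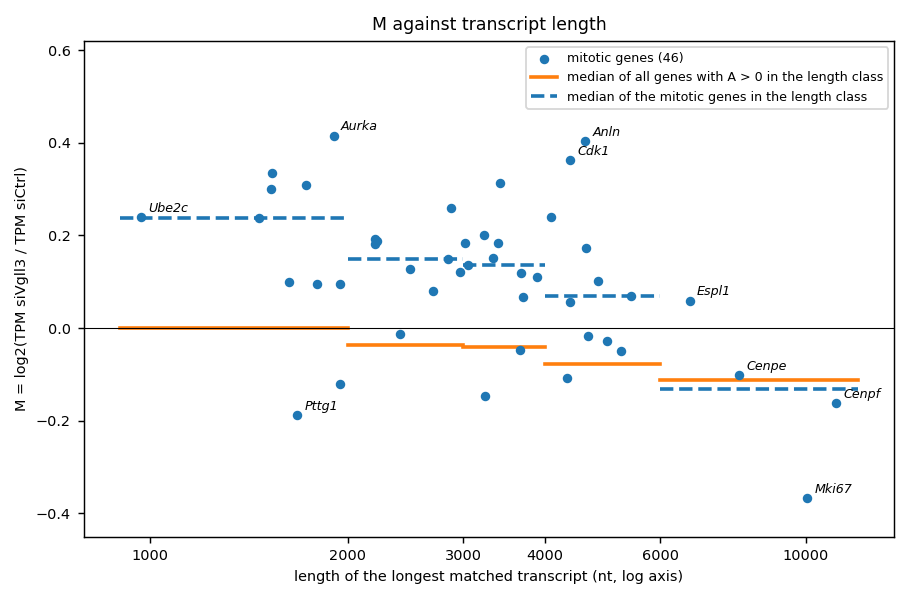
M against the length of the longest matched transcript (log axis) for the 46 mitotic genes (points), with the median of the mitotic genes (dashed) and of all genes with A > 0 (solid) in 5 length classes. Mitotic medians lie above those of all genes in the 4 classes under 6000 nt, and *Mki67* lies lowest at 10061 nt.

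Other lists of cell division genes gave a setting for these values, read by their counts and medians beside those of all genes. A further 83 mitotic genes, of which 82 had A > 0, had a median M of 0.13, with 5 of the 82 past 0.5 and 0 below −0.5. The 5 were *Zwint* (132 to 199 TPM, M of 0.59), *Cenph* (0.55), *Cenpl* (0.54), *Oip5* (0.54) and *Cks1b* (283 to 401 TPM, M of 0.50). As a share, 5 of 82 is near the 5.73% of all genes with A > 0 that were past 0.5. *Zwint* encodes a kinetochore protein and *Cks1b* a CDK-binding protein. *Cenpb*, which encodes a protein that binds centromeric DNA, was at 176 and 145 TPM, an M of −0.29. *Cenph*, *Cenpl*, *Oip5* and *Cenpb* were named after their values were seen. *Mad2l1bp*, which helps to switch the checkpoint off, was lowest at −0.42.

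Genes of DNA replication and S phase had a median of 0.19, with 38 of 40 above 0, where 43.0% of all genes with A > 0 were above 0. The 2 past 0.5, a share near that of all genes, were *Rrm2*, a subunit of ribonucleotide reductase, (M of 0.60), and *Ccne2*, a cyclin of the entry into S phase (M of 0.61). Tubulins and genes of microtubule nucleation had a median of 0.21 over 25 genes, and *Tubb5*, among the most abundant of them, went from 1316 to 1681 TPM, an M of 0.35. Subunits and partners of the anaphase-promoting complex had a median of 0.00 over 16 genes, with 6 intervals above 0, 7 below and a range of −0.10 to 0.37. *Ube2s*, its chain-extending enzyme, was at 356 and 435 TPM, an M of 0.29. Cohesin and its regulators had a median of 0.00 over 13 genes, with 3 intervals above 0 and 6 below. *Smc1a*, a cohesin ring subunit, was at 56.2 and 46.8 TPM (M of −0.26), while its partner *Rad21* was at 132 and 137 TPM (M of 0.05).

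Transcription factors of the cell cycle had a median of −0.01 over 24 genes, with *E2f7*, a repressor of the E2F family, highest at 0.63, *E2f5* at 0.59 and *E2f2* lowest at −0.55. These were the only 3 of that list past 0.5 in size, where 5.73% of all genes with A > 0 had M > 0.5 and 11.4% had M < −0.5. Cyclins, CDKs and inhibitors of G1 had a median of 0.13 over 17 genes. Of these 17, 4 were above 0.5, a larger share than the 5.73% of all genes with A > 0. *Ccnd1*, the cyclin that answers growth signals, went from 86.5 to 170.4 TPM, an M of 0.98 [0.95, 1.00], the highest of the list. The others past 0.5 were *Cdkn1c*, a CDK inhibitor gene (0.94), *Ccng1* (0.70) and the p53 regulator *Mdm2* (0.54). *Cdkn1c*, *Mdm2* and *E2f5* were named after their values were seen. The lowest of the G1 genes was *Cdk6*, at −0.29.

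**Figure D5:**
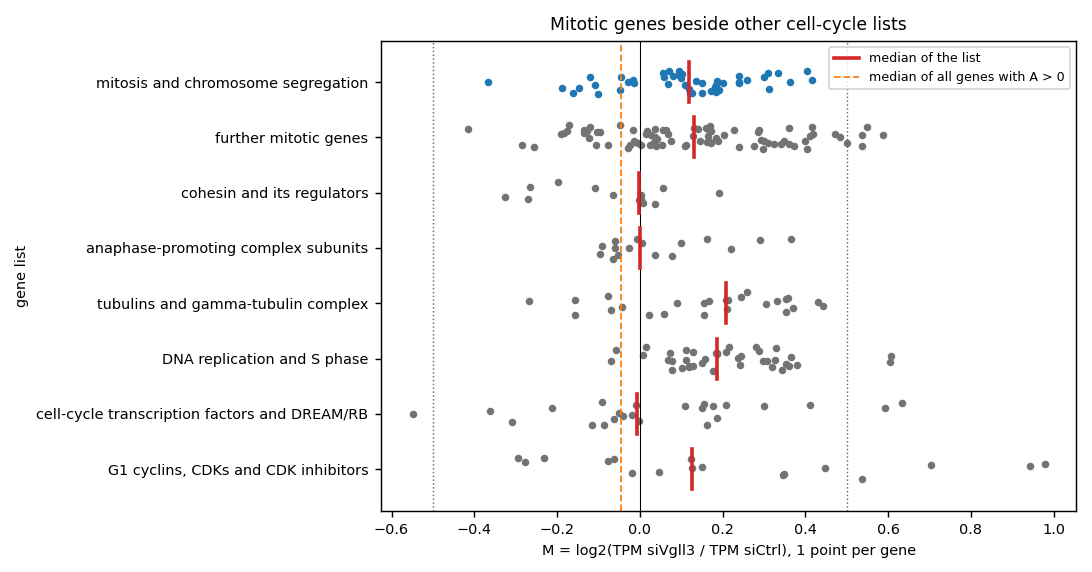
M of each gene (points) in the mitotic list and in 7 other lists of cell division genes, with the median of each list (red bars), a dashed line at the median of all genes with A > 0 and dotted lines at −0.5 and 0.5. The mitotic genes, with a median of 0.12, all lie inside the dotted lines, as do the genes of the cohesin, anaphase-promoting complex and tubulin lists.

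The cell type was checked with marker lists. Of the fibroblast and myofibroblast markers all 15 had A > 0, and their sums were 29379 and 28174 TPM, with *Vim* at 5343 and 6541 TPM and *Col1a2* at 4585 and 3179 TPM. Summed markers of leukocytes were at 16.3 and 14.8 TPM, of endothelial cells at 34.1 and 32.2 TPM and of mural cells at 118 and 115 TPM. Within these sums single markers differed in both directions. In the leukocyte list *Lyz2* was at 10.9 and 3.13 TPM and *Cd53* at 0.760 and 5.91 TPM. *Tek*, the most abundant endothelial marker, was at 19.5 and 13.4 TPM, and *Cldn5* had 11 and 94 reads. Most of the mural sum was *Mcam*, at 94.9 and 102 TPM, while *Notch3* was at 14.1 and 7.97 TPM and *Des* at 7.22 and 3.11 TPM. *Cldn5* was named after its value was seen. The leukocyte gene *Ptprc*, which encodes CD45, was without a read in either library. Such a count of 0 sets an upper limit of 3 reads. Of 12 cardiomyocyte markers 9 had 0 reads in both libraries, among them *Myh6*, *Actn2* and *Ttn*. *Tnnt2*, a cardiac troponin gene, was nonetheless at 60.0 and 10.4 TPM. The median M of the fibroblast and myofibroblast markers was −0.53, with 3 of 15 above 0.5 and 8 below −0.5, beside 5.73% and 11.4% of all genes with A > 0. The part of other cell types in the mitotic values was not tested.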

How the data were processed

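The authors sequenced RNA of siCtrl and si*Vgll3* myofibroblast cultures from stranded, poly-A selected libraries (TruSeq Stranded mRNA LT) on a NovaSeq 6000, with 1 library per condition. Per the paper's methods and the submitters' processing notes, reads were checked with FastQC, trimmed with Trimmomatic and mapped to mm10 with HISAT2, and known genes were assembled with StringTie. Tool versions, the annotation release and whether strand was used in counting are not given in the sources used here. The authors deposited raw read counts per gene, not normalized. TPM values per gene, which the authors scaled for gene length and library size, were deposited as well.

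M and A were computed from TPM with nothing added, with the study's threshold for lower genes (M < −0.5, A > 0) and M > 0.5 taken for higher genes. Counting intervals are 95% Clopper-Pearson intervals of the count ratio. They cover counting error only and treat reads as independent molecules, which reads are not. They were tested on simulated data, but those counts were drawn independently too, so the simulation cannot check that assumption. With 1 library per group no test was possible, and edgeR 4.0.16 and DESeq2 1.42.0 gave scaling factors only. Transcript lengths came from GENCODE vM21 (GRCm38) by RefSeq accession. The longest transcript was used, and a length was found for 11653 of 11754 genes. Promoter windows came from RefSeq (GRCm38.p6). In GENCODE, 26 of the 46 genes overlap another annotated gene, so part of their reads may have another origin, and the treatment of reads that fit several copies is not given. The 46 genes and the lists were chosen with earlier results of these data known. Genes named are the 46, *Vgll3*, and in each other list the 3 of largest mean TPM and those with the lowest and highest M, of which only some are printed. Others are said to be named after their values were seen. Protein motifs, planned at first, were not analysed here.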

Additional observations from a re-analysis of the deposited data

How the results depend on the processing

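No paired analysis was possible because there is a single library of siCtrl and of si*Vgll3*. None of the 46 mitotic genes was past M of 0.5 in either direction under any scaling, filter or pseudocount tried. That none was past a threshold of 1 follows from this and adds no check. A threshold of 0.25 gave 8 higher genes and 1 lower gene among the 46. Over the 11754 genes with A > 0 it gave 1697 higher and 3015 lower. The median M of the mitotic genes, 0.12 from TPM, was 0.17 with CPM, 0.16 with TMM scaling, 0.16 with DESeq2's size factors and 0.16 when centred on all genes, and the log2 ratio of their summed levels, 0.16 from TPM, was 0.18, 0.18 and 0.17 with CPM, TMM and DESeq2's factors. The shifts of the median M come mainly from where each scaling sets 0. The median of all genes was −0.05 from TPM and 0.0056 with CPM. The summed levels also changed in weighting, since the count scalings summed raw reads, which weight longer transcripts more than TPM does. Intervals below 0 numbered 9 from TPM, 5 with CPM, 5 with TMM, 6 with DESeq2's factors and 5 when centred. *Bub1b* and *Top2a*, below 0 from TPM, were at 0.0043 and 0.0024 with CPM. In an alternative added after the data were seen, the 20 genes that overlap no other annotated gene had a median of 0.15, with 16 intervals above 0 and 3 below, from fewer genes. Adding 0.1 or 1 TPM left M of each gene inside its counting interval. Other filters on A and at least 10 reads in each library only choose genes and cannot change M of a gene, and all 46 passed them. Depth does not limit these values, but the single library per condition does, since the spread between cultures is unknown.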
